A study of Bos taurus with 31 samples.

Results

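CD14, TLR4 and TLR2 are receptors through which macrophages recognise bacterial products. They were followed in the liver RNA of 31 bovine fetuses by 3 gene identifiers of the deposited count table, chosen from 27607 in all: ENSBTAG00000015032 (CD14), ENSBTAG00000006240 (TLR4) and ENSBTAG00000008008 (TLR2). All 3 had enough counts to be tested, among 14228 genes that did. The table holds identifiers alone. The symbols came with the choice of the identifiers, and the RefSeq gene table used here lists CD14, TLR4 and TLR2 as protein-coding genes but pairs no symbol with an Ensembl identifier. For the same reason the other genes of the Toll-like receptor pathway, and the markers of macrophages, granulocytes, hepatocytes, erythroid, endothelial, stellate and lymphoid cells, were not analysed here, and the macrophage label of the receptors was not checked against such markers.

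The fetuses were female and shared 1 sire, were carried by separate Angus-cross heifers, and were collected on day 83 of gestation. Every dam ate a total mixed ration of hay, silage, distillers grains and corn. VTM dams also received 0.45 kg per day of ground corn with a vitamin and mineral premix, starting 71 to 148 days before insemination and lasting until collection, which NoVTM dams lacked. After insemination the LG dams stayed on the basal ration, with a target of 0.28 kg of gain daily, whereas a starch-based energy and protein supplement brought the MG dams to 0.79 kg daily. The groups comprised 8 NoVTM_LG, 8 VTM_LG, 8 NoVTM_MG and 7 VTM_MG fetuses. Supplementation below means VTM against NoVTM, and gain means MG against LG.

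CD14 is a membrane-anchored or soluble protein that has no signalling domain of its own. It takes up lipopolysaccharide, the outer membrane lipid of Gram-negative bacteria, and hands it to TLR4, which with its partner MD-2 starts inflammatory signalling. TLR2 pairs with TLR1 or TLR6 to detect bacterial lipoproteins, and CD14 can deliver ligands to it as well. In liver these receptors are known from Kupffer cells, the resident macrophages, and CD14 is also made by hepatocytes. The fetal liver is in addition a site of blood cell formation. In whole tissue, fewer cells of a type and less RNA per cell cannot be told apart.

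The libraries held 13062894 to 18458776 counts. On the first principal component of all tested genes, which carried 14.1% of the variance, VTM_LG replicate 4 lay at 63.0 and VTM_LG replicate 7 at 37.9, while the other 29 libraries lay between -20.2 and 6.69. These 2 libraries stand apart from the rest, and values without them are given beside the results they move most. The labels give no sequencing batch per sample.

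CD14 was measured with 689 to 1417 counts per library, TLR4 with 18 to 78 and TLR2 with 38 to 90. Values are given in CPM, counts scaled to library size after adjustment of the libraries by TMM (trimmed mean of M-values). Counts grow with transcript length, and no transcript length is used here, so the levels of the 3 genes are not ranked against each other. Over all 31 fetuses CD14 averaged 73.5 ± 9.93 CPM, TLR4 3.16 ± 0.826 CPM and TLR2 4.54 ± 0.789 CPM (SD, n = 31). From the lowest to the highest fetus, CD14 spanned 1.92-fold, TLR4 3.94-fold and TLR2 2.07-fold.

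Part of this spread is counting error, which depends on depth. Counting alone, taken as Poisson, gave 5.01% of the within-group variance of CD14, 35.8% of that of TLR4 and 54.4% of that of TLR2. Single values of TLR4 and TLR2 are thus less certain than those of CD14. The biological coefficient of variation, edgeR's estimate of the spread beyond counting error, was 13.5% for CD14, 20.8% for TLR4 and 13.3% for TLR2, against a median of 13.9% over all tested genes. TLR4 was therefore the most variable of the 3, at the 75.5th percentile of the tested genes, while CD14 and TLR2 lay near the middle, at 47.7 and 46.4.

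**Figure D1:**
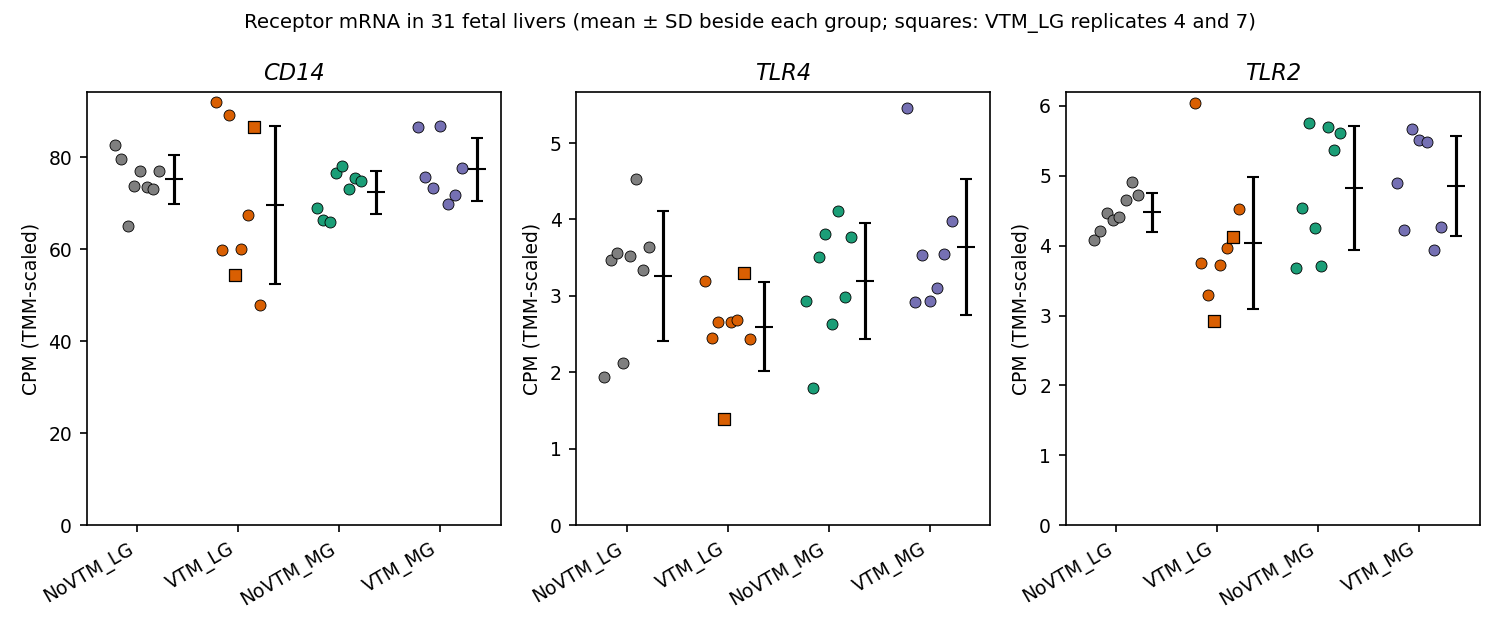
CPM of CD14, TLR4 and TLR2 (vertical axes, each from 0) in each fetus of the 4 groups, with mean ± SD beside each group and squares for VTM_LG replicates 4 and 7. All groups overlap, and CD14 spreads from 47.9 to 91.9 CPM in VTM_LG.

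CD14 had group means close to each other, but a lower median and a wider spread in VTM_LG. In NoVTM_LG the lowest, median and highest values were 64.9, 75.4 and 82.8 CPM. In NoVTM_MG they were 65.9, 73.9 and 78.05 CPM, and in VTM_MG 69.8, 75.8 and 86.8 CPM. In VTM_LG they were 47.9, 63.7 and 91.9 CPM. The 4 lowest fetuses of all 31 and the 2 highest were thus in VTM_LG, and that group overlapped every other. Above the VTM_LG median lay 8 of 8 NoVTM_MG and 7 of 7 VTM_MG fetuses. All NoVTM_LG fetuses lay above it too, the lowest at 64.9 CPM. The order of the group means was 69.7 ± 17.2 CPM in VTM_LG (SD, n = 8), 72.4 ± 4.72 in NoVTM_MG (n = 8), 75.2 ± 5.30 in NoVTM_LG (n = 8) and 77.4 ± 6.86 in VTM_MG (n = 7). Neighbours in this order differed by less than their SD.

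The spread of CD14 between VTM_LG fetuses was described further after its values were seen, and it was not tested. The 8 values fell as replicate 8 at 47.9 CPM, replicate 4 at 54.5, replicate 2 at 59.8, replicate 5 at 60.0, replicate 6 at 67.5, replicate 7 at 86.7, replicate 3 at 89.2 and replicate 1 at 91.9. No VTM_LG fetus lay between 67.5 and 86.7 CPM, the interval that held 19 of the 23 fetuses of the other groups. The SD of log2 CPM was 0.36 in VTM_LG and 0.11 over the other 3 groups, a ratio of 3.30. Over all tested genes the median of this ratio was 1.21, and 1.01% of genes reached that of CD14. Without replicates 4 and 7 the ratio was 3.37 for CD14 and 0.975 at the median of all genes, and 0.0703% of genes reached it, so the wide spread of CD14 was as large without the libraries that stood apart. The same ratio over all 8 VTM_LG fetuses was 0.996 for TLR4 and 1.50 for TLR2. Without replicates 4 and 7 it was 0.372 for TLR4, which 98.5% of genes reached, and 1.47 for TLR2, which 11.5% reached. The place of TLR4 among all genes therefore depended on these 2 libraries.

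**Figure D2:**
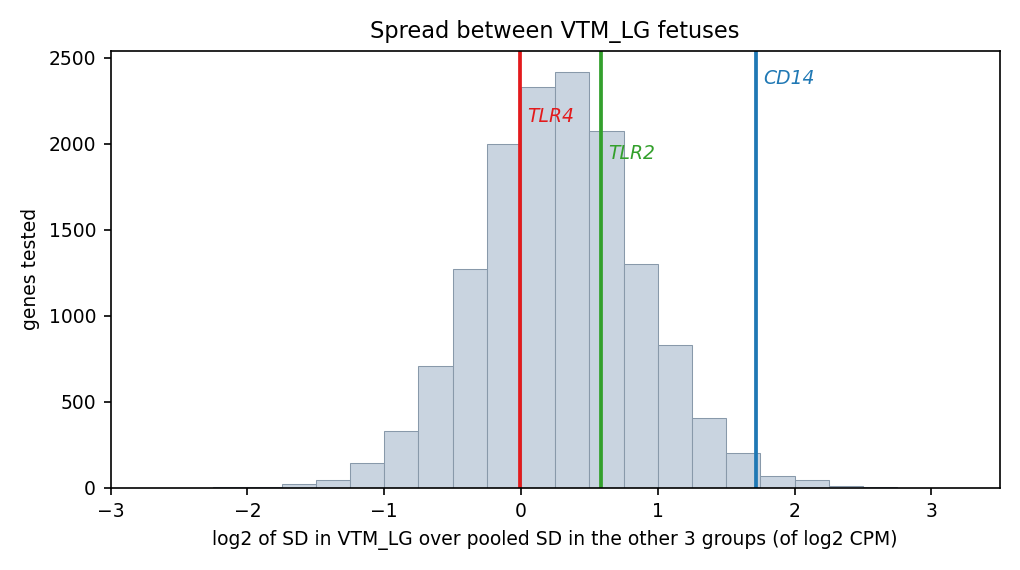
Histogram of the tested genes by the log2 of their SD (of log2 CPM) between VTM_LG fetuses over the SD pooled from the other 3 groups; coloured lines mark the 3 receptor genes. With all 8 VTM_LG fetuses, CD14 lies in the right tail, at a ratio of 3.30, while TLR4 (0.996) and TLR2 (1.50) lie in the body of the distribution. Without VTM_LG replicates 4 and 7, a setting not drawn, the TLR4 ratio was 0.372.

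TLR4 was lowest on average in VTM_LG. In that group the lowest, median and highest values were 1.38, 2.66 and 3.30 CPM, and 8 of 8 fetuses were below the NoVTM_LG median. In NoVTM_LG the values were 1.93, 3.49 and 4.53 CPM, in NoVTM_MG 1.79, 3.25 and 4.12 CPM, and in VTM_MG 2.91, 3.54 and 5.46 CPM. The groups overlapped throughout, and the lowest VTM_LG value, that of replicate 4, was the lowest of all 31. Group means were 2.60 ± 0.584 CPM in VTM_LG (SD, n = 8), 3.19 ± 0.761 in NoVTM_MG (n = 8), 3.26 ± 0.848 in NoVTM_LG (n = 8) and 3.64 ± 0.890 in VTM_MG (n = 7). Neighbours in this order differed by less than the larger of their SDs.

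TLR2 followed a similar order, with the NoVTM groups exchanged. Its lowest, median and highest values were 2.92, 3.86 and 6.04 CPM in VTM_LG, and 4.08, 4.44 and 4.91 CPM in NoVTM_LG. They were 3.68, 4.95 and 5.75 CPM in NoVTM_MG, and 3.94, 4.90 and 5.67 CPM in VTM_MG. Both the lowest and the highest fetus were in VTM_LG, and no pair of groups was separate. Group means ran from 4.04 ± 0.944 CPM in VTM_LG (SD, n = 8) and 4.48 ± 0.277 in NoVTM_LG (n = 8) to 4.82 ± 0.887 in NoVTM_MG (n = 8) and 4.85 ± 0.717 in VTM_MG (n = 7), and no neighbours differed by more than the larger of their SDs. In the RefSeq gene table for assembly ARS-UCD2.0, TLR2 overlaps RNF175, and no listed gene overlaps CD14 or TLR4. The strand setting of the counting is not given in the sources used here, so reads shared between TLR2 and RNF175 may not have been told apart.

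The treatment contrasts asked whether maternal supplementation, gain or their combination altered the receptors. In the quasi-likelihood test of edgeR, with Benjamini-Hochberg adjustment over all 14228 genes, 0 of the 3 receptor genes passed an adjusted p of 0.05 in any of the 9 contrasts. Among all genes the share that passed was 0.0211% for gain averaged over supplementation and 0% in each of the other 8 contrasts. DESeq2 also called 0 of the 3 in every contrast. Its share over all genes was 0.0633% for averaged gain and for NoVTM_MG against NoVTM_LG, 0.0422% for VTM_LG against NoVTM_MG, 0.0211% for averaged supplementation, 0.00703% for VTM_MG against VTM_LG and against NoVTM_LG, and 0% in the rest. Limma voom called 0 of the 3 as well, with shares of 0.0351% for averaged gain, 0.0141% for averaged supplementation and for NoVTM_MG against NoVTM_LG, and 0% in the rest.

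At an unadjusted edgeR p under 0.05, 1 of the 3 receptors was found for gain averaged over supplementation, TLR2, where 7.82% of all genes were found. For VTM_MG against VTM_LG 1 was found, TLR4, where the share of all genes was 14.8%. In the other 7 contrasts 0 were found. There the shares of all genes were 2.9% for averaged supplementation, 10.7% for the interaction, 4.59% for NoVTM_MG against NoVTM_LG, 8.25% for VTM_LG against NoVTM_LG, 4.57% for VTM_MG against NoVTM_MG, 2.85% for VTM_MG against NoVTM_LG and 8.94% for VTM_LG against NoVTM_MG.

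Gain averaged over supplementation had small positive fold changes for all 3. TLR2 stood at 4.26 ± 0.708 CPM over the LG fetuses (SD, n = 16) and at 4.84 ± 0.783 CPM over the MG fetuses (SD, n = 15). Its log2 fold change was 0.19 (SE 0.0901, edgeR unadjusted p = 0.0477, adjusted p = 0.634). TLR4 stood at 2.93 ± 0.783 and 3.40 ± 0.826 CPM in the same order, and its log2 fold change was 0.22 (SE 0.129, edgeR adjusted p = 0.667). CD14 stood at 72.4 ± 12.6 and 74.7 ± 6.16 CPM, with a log2 fold change of 0.05 (SE 0.0695, edgeR adjusted p = 0.866). The LG and MG ranges overlapped for every gene, and the differences were below 1 SD. Without VTM_LG replicates 4 and 7 the log2 fold changes were 0.16 for TLR2, 0.20 for TLR4 and 0.05 for CD14. TLR2 was then no longer under 0.05 before adjustment (edgeR unadjusted p = 0.0928, adjusted p = 0.961), and it was under 0.05 in 14 of the 37 alternatives run.

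Among fetuses of supplemented dams, TLR4 showed the largest difference of the 3 genes, between VTM_MG and VTM_LG. TLR4 was above the VTM_LG median in 7 of 7 VTM_MG fetuses, and 4 of them lay above every VTM_LG fetus. The log2 fold change was 0.48 (SE 0.186, 95% interval 0.10 to 0.86), a 1.39-fold higher level in VTM_MG, and it did not pass (edgeR unadjusted p = 0.0146, adjusted p = 0.263). TLR2 differed by 0.26 (SE 0.130) and CD14 by 0.15 (SE 0.100), with edgeR adjusted p-values of 0.338 and 0.477. Without VTM_LG replicates 4 and 7 the TLR2 value was 0.21, and its edgeR unadjusted p went from 0.0502 to 0.135. The TLR4 value was 0.44 without VTM_LG replicates 4 and 7 (edgeR unadjusted p = 0.0261, adjusted p = 0.873). It was 0.35 without VTM_MG replicate 1, the highest fetus for TLR4 (edgeR adjusted p = 0.477). In 37 of the 38 alternatives run the TLR4 difference had an unadjusted p under 0.05, and in none did it pass after adjustment (lowest adjusted p 0.165). Of these alternatives 31 left out 1 library each, and the exception was among them. They share most of their data, so they are not separate support.

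Without supplementation the same comparison of gain gave log2 fold changes near 0. For NoVTM_MG against NoVTM_LG they were -0.04 for TLR4 (SE 0.179), 0.11 for TLR2 (SE 0.125) and -0.06 for CD14 (SE 0.0967), each with an edgeR adjusted p of 1.00. The fit used 1 estimate of the spread per gene for all groups, so the CD14 standard errors do not reflect its wider spread in VTM_LG. With only the compared groups fitted, the CD14 edgeR unadjusted p went from 0.572 to 0.296 in this contrast. In VTM_MG against VTM_LG it went from 0.141 to 0.218. The interaction tests whether the effect of gain differed with supplementation. It was 0.52 on the log2 scale for TLR4 (SE 0.258, edgeR unadjusted p = 0.0536, adjusted p = 0.474), 0.21 for CD14 (SE 0.139, adjusted p = 0.595) and 0.16 for TLR2 (SE 0.180, adjusted p = 0.761). The TLR2 interaction was 0.10 without VTM_LG replicates 4 and 7. The effects of gain at the 2 levels of supplementation were thus not shown to differ for any of the 3, and the interval for TLR4, from -0.01 to 1.04, is wide.

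Supplementation averaged over gain had values near 0 for all 3. The log2 fold changes were -0.01 for CD14 (95% interval -0.15 to 0.13), -0.07 for TLR4 (-0.33 to 0.20) and -0.07 for TLR2 (-0.25 to 0.12), each with an edgeR adjusted p of 1.00. The mean of CD14 was 73.8 ± 5.06 CPM over NoVTM fetuses (SD, n = 16), against 73.3 ± 13.6 CPM over VTM fetuses (SD, n = 15). As fold changes these intervals run from 0.903 to 1.10 for CD14, 0.796 to 1.15 for TLR4 and 0.840 to 1.08 for TLR2. Average effects within these intervals are compatible with the data. The TLR2 value was -0.039 without VTM_LG replicates 4 and 7.

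Within the levels of gain, the values for supplementation were negative at low gain and positive at moderate gain, and none passed. VTM_LG against NoVTM_LG had log2 fold changes of -0.33 for TLR4 (SE 0.181), -0.15 for TLR2 (SE 0.126) and -0.11 for CD14 (SE 0.0967), with edgeR adjusted p-values of 0.623, 0.728 and 0.734. The TLR2 value was -0.088 without VTM_LG replicates 4 and 7. VTM_MG against NoVTM_MG had 0.19 for TLR4 (SE 0.184), 0.01 for TLR2 (SE 0.129) and 0.10 for CD14 (SE 0.0999), with edgeR adjusted p-values of 0.956, 0.996 and 0.956. The TLR4 value at moderate gain was 0.067 without VTM_MG replicate 1, and the sign of the TLR2 value there changed when some single libraries were left out. The first of these comparisons shares the VTM_LG fetuses with VTM_MG against VTM_LG, so their values are not independent.

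The remaining comparisons changed both factors. VTM_MG against NoVTM_LG gave 0.15 for TLR4, 0.12 for TLR2 and 0.04 for CD14 on the log2 scale, each with an edgeR adjusted p of 1.00. The TLR4 value was 0.030 without VTM_MG replicate 1, and the CD14 value 0.010 without VTM_MG replicate 4. VTM_LG against NoVTM_MG gave -0.29 for TLR4 (SE 0.182), -0.25 for TLR2 (SE 0.126) and -0.05 for CD14 (SE 0.0968), with edgeR adjusted p-values of 0.638, 0.560 and 0.892. Without VTM_LG replicates 4 and 7 the TLR2 value was -0.195, and its edgeR unadjusted p went from 0.0524 to 0.146. TLR4 had the widest intervals of the 3 in every contrast.

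**Figure D3:**
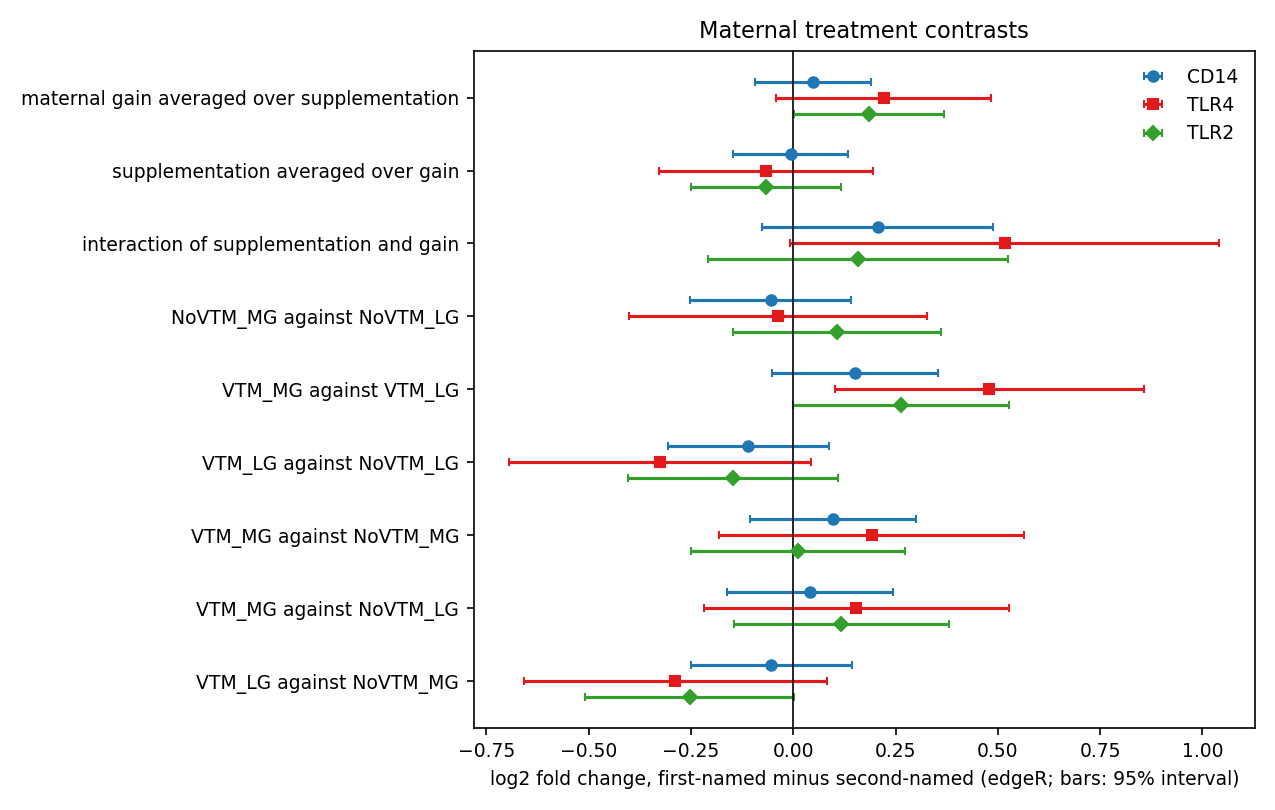
Log2 fold changes of the 3 receptor genes (horizontal axis; edgeR, bars for 95% intervals) in the 9 contrasts. Most intervals span 0; those of TLR4 in VTM_MG against VTM_LG (0.10 to 0.86) and of TLR2 for gain averaged over supplementation do not, and neither passed after adjustment over all genes.

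Covariation between fetuses was measured on log2 CPM after the mean of each group was subtracted, so that differences between treatments do not enter. TLR4 and TLR2 had the highest correlation of the 3 pairs in this setting. Pearson's r was 0.41 (permutation p = 0.0276, adjusted over the 3 pairs p = 0.0829) and Spearman's rho was 0.41 (permutation p = 0.0285, adjusted p = 0.0854), both two-sided and over 31 fetuses. It did not pass after adjustment. For CD14 and TLR4, r was 0.32 (permutation p = 0.0776, adjusted p = 0.116) and rho 0.32 (permutation p = 0.0815, adjusted p = 0.122). For CD14 and TLR2, r was 0.17 (permutation p = 0.524, adjusted p = 0.524) and rho 0.07 (permutation p = 0.723, adjusted p = 0.723).

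The higher coefficients rested in part on 1 fetus. VTM_LG replicate 4 was the lowest of all 31 fetuses for TLR4, at 18 counts, the lowest for TLR2, at 38 counts, and the second lowest for CD14, at 708 counts. Without it r was 0.29 for TLR4 and TLR2 and 0.21 for CD14 and TLR4. Without VTM_LG replicates 4 and 7 it was 0.30 (permutation p = 0.0984), 0.17 (permutation p = 0.201) and 0.06 for CD14 and TLR2 (permutation p = 0.839), over 29 fetuses. Leaving out the 2 fetuses farthest from the median of the first-named gene gave 0.30 for TLR4 and TLR2 (permutation p = 0.0656), 0.18 for CD14 and TLR4 (permutation p = 0.232) and 0.16 for CD14 and TLR2 (permutation p = 0.603). Without the whole VTM_LG group, a setting chosen after seeing the data, r was 0.28 for TLR4 and TLR2 (permutation p = 0.208), 0.091 for CD14 and TLR4 (permutation p = 0.690) and -0.073 for CD14 and TLR2 (permutation p = 0.747). The CD14 and TLR2 coefficient also turned to -0.08 without VTM_LG replicate 1, which had the highest value of both genes.

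The calls depended on the centring and scaling. With group means left in, r was 0.51 for TLR4 and TLR2 (permutation, adjusted p = 0.00915) and 0.42 for CD14 and TLR4 (permutation, adjusted p = 0.0302). With plain library sizes in place of TMM scaling, r was 0.48 and 0.40 for the same pairs, each with a permutation p of 0.0205 after adjustment. With the first principal component also removed, r was 0.32 for TLR4 and TLR2 (permutation p = 0.0847) and 0.34 for CD14 and TLR4 (permutation p = 0.0480). The order of these pairs was then reversed, and each had a permutation p of 0.127 after adjustment.

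**Figure D4:**
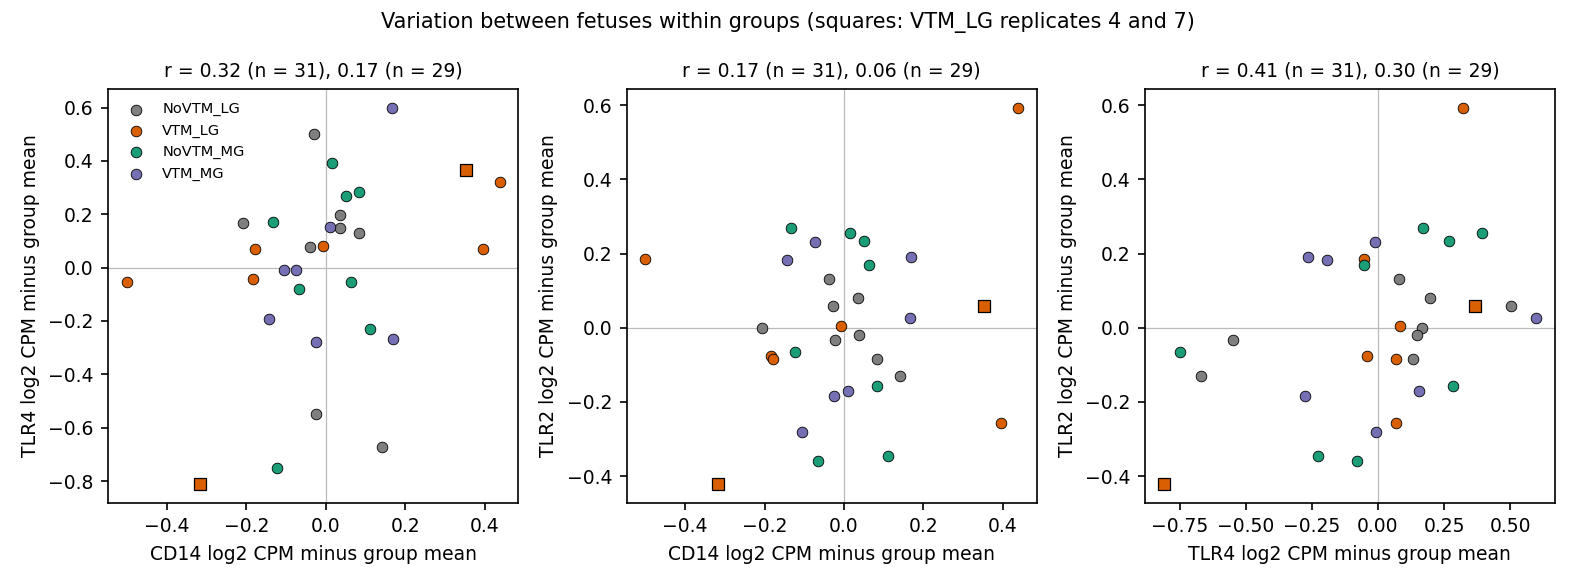
Log2 CPM minus the group mean for each pair of receptor genes, 1 point per fetus, with squares for VTM_LG replicates 4 and 7. TLR4 and TLR2 have r = 0.41 over 31 fetuses and 0.30 over 29, and the lower left square, VTM_LG replicate 4, is low for all 3 genes.

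Within the groups the coefficients differed, each over 8 fetuses or, in VTM_MG, 7, and they are given as a description. For TLR4 and TLR2, r was 0.60 in NoVTM_LG, 0.45 in NoVTM_MG, 0.68 in VTM_LG and -0.12 in VTM_MG. For CD14 and TLR4 it was -0.38, 0.36, 0.64 and 0.40 in the same order. For CD14 and TLR2 it was -0.46, -0.16, 0.33 and 0.16. No pair had the same sign in all 4 groups. In VTM_LG without replicates 4 and 7, CD14 and TLR4 had an r of 0.78 over 6 fetuses. The coefficient of variation of TLR4 CPM in these fetuses was 10.3%. Counting alone would give 14.7% for TLR4 over all 31 fetuses. TLR4 thus showed no spread beyond counting error there, and this r is not read as covariation of the 2 genes.

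Against all other tested genes, the pairing of TLR4 and TLR2 was high but not extreme. Their r was at least as high as that of TLR4 with 96.7% of the 14227 other genes, and as that of TLR2 with 96.4%. Without VTM_LG replicates 4 and 7 these shares were 91.5% and 91.9%. The r of CD14 and TLR4 was at least as high as that of CD14 with 91.6% of the other genes, and that of CD14 and TLR2 with 77.8%. Without these 2 libraries the shares were 77.1% and 61.2%. Counting error lowers such coefficients. If the underlying levels moved in full proportion, the counting shares given above would give an expected r of about 0.54 for TLR4 and TLR2, 0.78 for CD14 and TLR4, and 0.66 for CD14 and TLR2. These are rough expectations, from the variance of CPM over all groups, whereas r is of log2 CPM. They are not upper limits, and r of TLR4 and TLR2 was higher in NoVTM_LG (0.60) and VTM_LG (0.68). The counting shares do not hold within each group. In NoVTM_LG the coefficient of variation of TLR2 was 6.19%, below the 12.3% that counting alone would give over all 31 fetuses. The r of 0.60 there cannot be set against the expected value.

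The genes most like each receptor were taken as the 2 with the highest r over the 31 fetuses, group means removed, among 13178 genes with a mean of at least 1 CPM. For CD14 they were ENSBTAG00000030882 (r = 0.78) and ENSBTAG00000016149 (r = 0.75). For TLR4 they were ENSBTAG00000009150 (r = 0.69) and ENSBTAG00000012210 (r = 0.68), and for TLR2 ENSBTAG00000012004 (r = 0.70) and ENSBTAG00000016076 (r = 0.68). Without VTM_LG replicates 4 and 7 these 6 coefficients lay between 0.62 and 0.75. None of the 3 receptors was among the genes most like another. As these are the highest of many coefficients over few fetuses, they are a description, and no symbol was at hand for them.

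The ratio of 2 receptors within a library does not change when both scale together. The difference in mean log2 ratio was computed for the 3 pairs in the 6 pairwise contrasts and the 2 averaged ones, 24 permutation tests in all, and 0 of them had an unadjusted p under 0.05. The nearest was the ratio of CD14 to TLR4 in VTM_MG against VTM_LG, which was lower by a log2 difference of -0.29 (exact permutation p = 0.0836, adjusted p = 0.869). The balance between the receptors was therefore not shown to differ between groups.

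Library measures were compared with the receptors in 6 relations, group means removed. The first principal component was computed over all 31 libraries, and VTM_LG replicates 4 and 7 stand apart on it. It need not be the main variation among the other 29 fetuses. Over the 29 fetuses without VTM_LG replicates 4 and 7, r with the first principal component was 0.15 for CD14 (rho -0.20), -0.28 for TLR4 (rho -0.29) and -0.18 for TLR2 (rho -0.17). With the log2 total count over 31 fetuses, r was 0.16 for CD14 (rho 0.14), -0.16 for TLR4 (rho -0.07) and 0.10 for TLR2 (rho 0.09). The adjusted permutation p-values of these r and rho were at least 0.629. Without the 2 fetuses farthest on the first component, r became -0.46 for CD14, -0.43 for TLR4 and 0.0024 for TLR2. Without the 2 farthest in total count it was 0.18, 0.033 and 0.16 in the same order, so the signs for CD14 and TLR2 with the component and for TLR4 with total count rested on those fetuses.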

How the data were processed

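Strand-specific liver RNA libraries, read in pairs of 150 bp per the labels' protocols, were deposited by the authors as raw counts per gene, whole numbers without normalization, in 1 table. The submitters' processing notes name CASAVA, FastQC 0.11.8, MultiQC 1.9, STAR 2.7.3a and edgeR. Which program counted the reads, with which strand setting, annotation and genome build, is not given in the sources used here. Columns were matched to samples by title and groups taken from the treatment label; replicate numbers are names only.

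Genes were kept by filterByExpr (minimum count 10, minimum total 15) and libraries scaled by TMM. The 31 libraries were fitted with 1 mean per group in edgeR 4.0.16 (R 4.3.3). DESeq2 1.42.0 and limma 3.58.1 were alternatives. Standard errors came from the fold change and its F statistic. Correlations and ratios used log2 CPM (prior count 2). Correlations had 100000 permutations within groups, or over all 31 fetuses where group means were left in. Pairwise ratios had exact enumeration, and averaged ratios 100000 permutations within the levels of the other factor. The edgeR and correlation procedures were tested on simulated data. Each fetus had its own dam, so p-values refer to the variation among such fetuses.

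The members, gene lists and named-gene rule (the 3 receptors and the 2 genes most like each) were chosen with earlier results of these data known. The pathway and cell type lists could not be run, as 0 of 37063 entries of the RefSeq table (ARS-UCD2.0) held an Ensembl identifier. No sequence is shown.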

Additional observations from a re-analysis of the deposited data

Results flagged for a closer look

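In 2 of the 12 sets of 1 gene in 1 group, a single fetus lay far from the rest of its group; about 1 in 20 such sets would be marked by chance. TLR4 was 1.38 CPM in VTM_LG replicate 4, while the next lowest fetus of that group had 2.43 CPM. TLR4 was 5.46 CPM in VTM_MG replicate 1, while the next highest of that group had 3.98 CPM. Both fetuses widen the TLR4 difference between VTM_MG and VTM_LG, whose log2 fold change was 0.48 with all libraries, 0.40 without the first and 0.35 without the second.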

How the results depend on the processing

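The number of receptor genes past the threshold was 0 in all 9 contrasts under every alternative run: RLE scaling, no filter, a filter of 1 CPM in 7 libraries, DESeq2, limma voom, the compared groups alone, and leaving out each library or VTM_LG replicates 4 and 7 together. Of 1017 alternative log2 fold changes, 998 kept their sign and 19 did not, each of the latter at most 0.055 in size; the lowest adjusted p was 0.165. Sign changes came on leaving out 1 library for CD14 and supplementation (-0.040 to 0.022), CD14 in VTM_LG against NoVTM_MG (-0.121 to 0.0023), TLR4 in NoVTM_MG against NoVTM_LG (-0.116 to 0.055) and TLR2 in VTM_MG against NoVTM_MG (-0.035 to 0.059), and in limma voom for TLR4 and supplementation (0.013). Without VTM_LG replicates 4 and 7 the log2 ratio of CD14 to TLR4 for supplementation became -0.00798, and that of CD14 to TLR2 in VTM_LG against NoVTM_LG -0.041.

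The correlations of CD14 with TLR4 and of TLR4 with TLR2 passed with plain library sizes (0.40 and 0.48) and with no centring (0.42 and 0.51); the cause was not tested. Leaving out 1 library gave 0.21 to 0.41 for CD14 and TLR4, -0.082 to 0.30 for CD14 and TLR2, and 0.29 to 0.45 for TLR4 and TLR2. Without the VTM_LG group, an alternative chosen after seeing the data, CD14 and TLR2 had -0.073, CD14 and TLR4 0.091, and TLR4 and TLR2 0.28. The low counts of TLR4 and TLR2 limit single values.

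No paired analysis was run, because each fetus had its own dam and each dam belonged to a single group. The replicate numbers are names only and do not pair fetuses between groups.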
